A study of Mus musculus with 8 samples.

Results

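Serine proteases cut proteins with an activated serine, and most of those named here share the trypsin fold. Spermatocytes and spermatids make many of them, as membrane-anchored enzymes and as contents of the acrosome, the vesicle on the sperm head that opens at fertilisation, and several are needed for sperm to travel up the female tract. Serpins trap a protease by a change of shape after they are cut, whereas Kazal (Spink), Kunitz (Spint) and WAP-domain (Wfdc) proteins carry small disulphide-bonded domains, many of which plug the active site. In the testis, inhibitors come from germ cells as well as from Sertoli and interstitial cells, and they hold in check acrosin, plasminogen activators and complement proteases.

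The genes described here are all rows whose symbol begins with Prss and a number, Tmprss, Klk, Htra, Serpin, Spink or Spint and a number, or Wfdc. There were 76 such genes among the 17121 of the table. They comprised 42 proteases (27 Prss, 7 Klk, 5 Tmprss, 3 Htra) and 34 inhibitors (19 Serpin, 9 Wfdc, 4 Spint, 2 Spink). The name of a family does not make every member an active enzyme or a working inhibitor.

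The data are RNA-seq of mouse testis, with 4 libraries of the genotype CTL and 4 of the genotype N6amt1-SKO, a design meant to show how the methyltransferase N6AMT1 acts in spermatogenesis. The labels give no age, do not spell out SKO, and name neither the alleles, the cells in which they act, nor what the controls carry. They do not say that the libraries come from separate animals, so p-values measure the spread between these libraries only. The RNA extraction protocol names heart ventricles; none of the Sertoli, pachytene or spermatid markers checked was at 0 in any library. Of the heart muscle markers 6 of 9 were in the table, of which 2, Tnnt2 and Tnni3, rose and 0 fell, with sums of 2281 to 2897 in CTL and 4377 to 6882 in the SKO-labelled group. What this means for the source of the RNA was not tested.

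Estimated depth was 257.7 M reads in CTL 1, 224.6 M in CTL 2 and 40.6 to 70.1 M in the other 6 libraries. The share of 18S ribosomal RNA was 0.17% to 0.27% in CTL 1 and 2 and SKO-labelled libraries 1 to 3 (SKO 1 to 3 below), and 0.72% to 0.97% in CTL 3, CTL 4 and SKO 4. N6amt1 itself was not lower in the libraries labelled SKO, with values of 475, 433, 629 and 514 in CTL 1 to 4 against 586, 557, 561 and 625 in SKO 1 to 4 (log2 fold change 0.19, limma adjusted p = 0.437, n = 4 each), so the level of this gene does not check the label. All values are read counts that the authors had scaled per library, normalised again between libraries (normalised values). A log2 fold change is SKO-labelled minus CTL on log2(value + 5), with its standard error (SE). A gene is said to rise or fall where limma's p, adjusted over the 17066 genes tested by the Benjamini-Hochberg method, was below 0.05.

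The catalytic serine of trypsin-like proteases sits in the run glycine, aspartate, serine, glycine, glycine. A search of the coding sequences found the codons of this exact run in 26 of 41 proteases, namely all 7 Klk and all 5 Tmprss genes but 14 of 26 Prss genes. The 3 Htra genes, which belong to another branch of the fold, had asparagine in place of the aspartate. The codons are shown for the called proteases that hold the run and for Prss39, Prss21 and Prss55, sperm proteases described below, in the sense strand of GENCODE M21 transcripts, with the serine codon in capitals.
Prss36: ggtgacTCTggggga
Prss12: ggagacAGTggagga
Prss42: ggagatTCTggaggc
Prss44: ggagatTCTgggggc
Prss56: ggtgacTCCgggggc
Prss39: ggagacTCTgggggc
Prss21: ggtgacTCGggagga
Prss55: ggtgacAGTggggga
The exact run was not found in Prss43, Prss45, Prss35 or Prss16 among the called Prss genes, nor in Prss37, Prss50 or Prss54. Prss16 belongs to a different fold, that of serine carboxypeptidases. In the codons shown, the serine was written both as a TCN codon and as AGT.

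Promoter sequence was available for 59 of the 76 genes, 16 of the 22 called ones among them. The 120 bases before the RefSeq start (GRCm38.p6, sense strand of the gene) are shown for 4 genes with clear differences in both directions: Prss36 (chr7:127946726-127946845, minus strand), Prss45 of the gene row on chromosome 9 (chr9:110834468-110834587, plus strand), Wfdc10 (chr2:164655926-164656045, plus strand) and Serpine2 (chr1:79858666-79858785, minus strand). Capitals mark GC boxes, GGGCGG on either strand, and a capital run may hold 2 of them overlapping.
Prss36: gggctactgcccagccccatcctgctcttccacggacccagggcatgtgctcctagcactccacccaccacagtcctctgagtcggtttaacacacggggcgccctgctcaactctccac
Prss45: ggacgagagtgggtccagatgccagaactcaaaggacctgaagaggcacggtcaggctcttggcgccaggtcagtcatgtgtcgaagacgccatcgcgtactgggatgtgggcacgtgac
Wfdc10: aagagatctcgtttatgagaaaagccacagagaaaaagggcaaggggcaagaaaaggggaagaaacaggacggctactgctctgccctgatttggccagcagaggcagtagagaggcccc
Serpine2: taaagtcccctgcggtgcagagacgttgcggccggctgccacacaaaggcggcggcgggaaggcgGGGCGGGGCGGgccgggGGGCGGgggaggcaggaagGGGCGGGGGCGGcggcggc
The Serpine2 window held 5 GC boxes, and the other 3 windows held none. Over 250 bases before the start, a GC box was present in 12 of the 59 genes and in 35.4% of all genes of the promoter table. TATAAA, searched on both strands, was present in 7 of 59 against 14.3% of all genes. TGACGTCA, the full cyclic AMP response element, was present in 0 of 59 against 1.77%.

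More inhibitors than proteases passed the test, and most of those inhibitors were higher in the SKO-labelled libraries. Of the 42 proteases 5 rose and 5 fell, 11.9% each way, and 32 did not pass, with a median log2 fold change of -0.28. Of the 34 inhibitors 11 rose (32.4%) and 1 fell (2.94%), and 22 did not pass, with a median of 0.74. Over all genes tested 19.9% passed, 11.9% rising and 7.93% falling, and the median was 0.04. The share of proteases that rose thus equalled that of all genes, and the share of inhibitors that rose lay above it. The estimate was positive for 27 of 34 inhibitors and 15 of 42 proteases. Because fewer cells of a type and less RNA per cell cannot be told apart in bulk tissue, each change below may be either.

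These counts rested on several libraries. Without SKO 3, 0 of all 17066 genes passed in limma at the adjusted threshold, and so 0 proteases and 0 inhibitors, where 4788 genes and 27 of the 76 had an unadjusted p below 0.05. Calls were also fewer over all genes without CTL 3 (4.02% risen, 3.18% fallen), SKO 1 (4.76% and 2.74%) or SKO 2 (4.82% and 2.95%). The protease counts were then 3 and 1, 3 and 2, and 4 and 1 risen and fallen, and 5, 5 and 4 inhibitors rose with 0 falling. Over all genes, 8.14% rose and 8.06% fell without CTL 1 alone, and 6.49% and 6.98% without CTL 2 alone. In each of these 2 fits 4 proteases rose and 4 fell, and 10 and 9 inhibitors rose. Without CTL 1 and 2, the deepest libraries, 7 proteases rose and 4 fell, and 14 inhibitors rose and 1 fell, where 10.5% of all genes rose and 13.6% fell. The estimates themselves moved by less than 1.5-fold for every called gene when 1 library was left out. Scaling mattered for the split of directions: 72.7% of the called genes rose, against 100% when libraries were scaled to equal totals, where 6 proteases and 20 inhibitors rose and 0 of either fell (3 proteases and 0 inhibitors at an unadjusted p below 0.05). That scaling shifted the median of all genes to 0.33, and 28.6% of all genes rose and 2.67% fell. The direction of the protease median was not stable either, at 0.01 with equal totals, 0.23 without CTL 1 and 2 and 0.09 within the libraries of high 18S content. The inhibitor median was 1.03, 0.85 and 0.55 in these fits. None of the 22 called genes changed sign under it or under any other alternative tried.

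**Figure D1:**
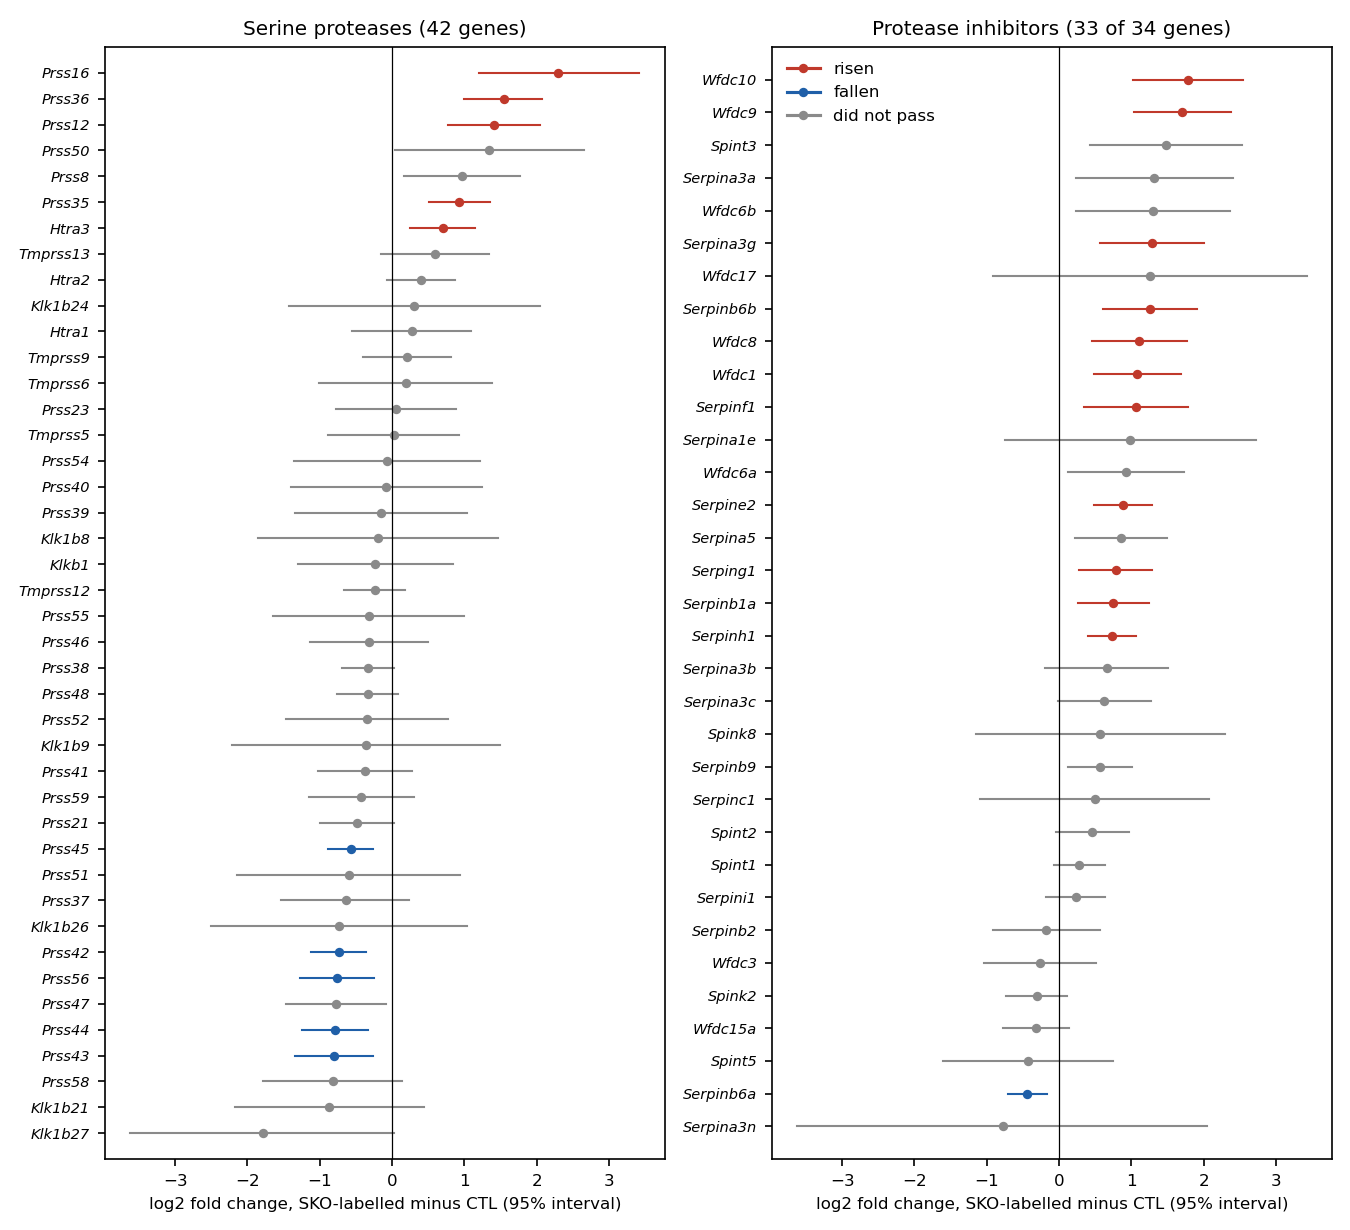
Log2 fold change (SKO-labelled minus CTL, log2 of the normalised value + 5) with its 95% interval for all 42 protease genes (left) and 33 of the 34 inhibitor genes (right), in order of size. Red marks genes that rose, blue genes that fell and grey genes that did not pass. Inhibitor estimates lie mostly right of 0, with a median of 0.74 over all 34, and protease estimates lie mostly left of it, with a median of -0.28 that turned to 0.23 without CTL 1 and 2 and to 0.01 with equal totals.

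Among the proteases that rose, Prss36 and Prss12 changed clearly at low levels. Prss36 encodes polyserase-2, a secreted protein with several trypsin-like domains (chromosome 7, 127932638 to 127946725). Its values were 438, 319, 267 and 245 in CTL 1 to 4 against 935, 652, 981 and 1131 in SKO 1 to 4. The groups did not overlap (2.90-fold, log2 fold change 1.54, SE 0.24, limma adjusted p = 0.0123). Prss12 encodes neurotrypsin, which cuts the synapse-organising protein agrin (chromosome 3, 123446913 to 123506602). It had 166, 140, 87 and 147 in CTL 1 to 4 against 234, 410, 448 and 381 in SKO 1 to 4. SKO 1 was the lowest of its group but lay above every CTL library (log2 fold change 1.41, limma adjusted p = 0.0155). An antisense transcript, Gm35065, overlaps 6.0% of the exon bases of Prss12.

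Prss16, a carboxypeptidase-like enzyme known from the thymus (chromosome 13, 22002176 to 22009741), had the largest log2 fold change of the proteases, 2.30, at a low level. Library by library it had 50, 21, 7 and 16 in CTL 1 to 4 against 158, 112, 130 and 77 in SKO 1 to 4 (limma adjusted p = 0.0169). The groups did not overlap, but the lowest CTL value rests on about 4 reads, so the size of the ratio is poorly fixed.

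Prss35 was far more abundant (chromosome 9, 86743240 to 86758443). It encodes a secreted protein of the trypsin fold, first described in the ovary, and the exact active-site run was not found in it. CTL 1 to 4 had 5270, 5135, 5287 and 6857, and SKO 1 to 4 had 8857, 12915, 13470 and 8463. SKO 2 and SKO 3 were highest, and all 4 SKO-labelled libraries exceeded CTL 4 (1.91-fold, log2 fold change 0.93, SE 0.19, limma adjusted p = 0.0156). Htra3 was the Htra gene that rose (chromosome 5, 35652026 to 35679813). Proteases of this family degrade misfolded and matrix proteins. Its 4 CTL values were 3311, 3514, 2688 and 2990, and its SKO-labelled values were 4926, 6771, 5542 and 3498. SKO 4 lay just below CTL 2, so the groups overlapped (log2 fold change 0.70, limma adjusted p = 0.0394). Htra3 kept its call in only 1 of the 8 fits that left out 1 library. Htra1, which also acts on matrix, had a range of 2103 to 3103 in CTL and of 1506 to 6351 in the libraries labelled SKO, and did not pass (adjusted p = 0.630). Htra2, a mitochondrial protease, did not pass either (log2 fold change 0.40, limma adjusted p = 0.194), and a library without strand information cannot separate it from Loxl3 and Aup1, which overlap 43.7% of its exons from the opposite strand.

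The 4 falling Prss genes other than Prss56 stand in 1 row on chromosome 9. The row, in which neighbours lie at most 500 kb apart, holds Prss42, Prss44, Prss43, Prss45, Prss46 and Prss50. Of these 6 genes 4 fell (66.7%, against 7.93% of all genes) and 0 rose, with a median log2 fold change of -0.66. Prss42, Prss43 and Prss44 encode proteases of spermatocytes, also called TESSP-2, TESSP-3 and TESSP-4.

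Prss42 (110797248 to 110803744) had 5445, 5451, 4357 and 5761 in CTL 1 to 4 against 3402, 3258, 3647 and 2348 in SKO 1 to 4. Every SKO-labelled library lay below every CTL library (1.67-fold lower, log2 fold change -0.74, SE 0.17, limma adjusted p = 0.0201). Prss44 (110813919 to 110817999) had 3172, 2770, 4469 and 4211 in CTL 1 to 4 against 1795, 1726, 2180 and 2731 in SKO 1 to 4. The groups again did not overlap, though SKO 4 came close to CTL 2 (log2 fold change -0.79, limma adjusted p = 0.0294). Prss43 (110826690 to 110831507) had CTL values of 3117, 3104, 4569 and 4829 and SKO-labelled values of 1978, 1651, 2140 and 3293. Here SKO 4 lay above CTL 1 and 2 (log2 fold change -0.80, limma adjusted p = 0.0440). Prss45 (110834588 to 110841310), the neighbour whose promoter is printed above, had the narrowest spread of the row. It had 3241, 3389, 3657 and 3025 in CTL 1 to 4 against 2289, 1882, 2331 and 2484 in SKO 1 to 4, without overlap (1.48-fold lower, log2 fold change -0.57, SE 0.14, limma adjusted p = 0.0226). The falls held within the 5 libraries of low 18S content, where the log2 fold changes were -0.67 for Prss42, -0.65 for Prss44, -0.70 for Prss43 and -0.62 for Prss45. There the only controls are CTL 1 and 2, the deepest libraries, so depth and genotype cannot be told apart. Without CTL 1 and 2 the log2 fold changes were -0.73, -1.11, -1.15 and -0.62 in the same order. None of these genes passed with equal library totals. Prss44, Prss43 and Prss45 did not pass without CTL 3, SKO 1 or SKO 2.

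At the end of the same row, Prss50 had an estimate of the opposite sign and did not pass. Its protein, TSP50, has threonine where the catalytic serine would be. CTL 1 to 4 had 3968, 3121, 984 and 636, and SKO 1 to 4 had 7319, 4223, 4747 and 2215. CTL 1 and CTL 2 lay above SKO 4, and the CTL values spread 6.19-fold (log2 fold change 1.34, SE 0.58, limma adjusted p = 0.126). It passed as risen without CTL 1 and 2 (log2 fold change 2.37, limma adjusted p = 0.00464) and with 18S content as a covariate (0.90, adjusted p = 0.0303), a fit in which 16.4% of all genes rose and 12.9% fell. Within the low 18S libraries the log2 fold change was 0.58. Prss46, named only to complete the row, had a range of 2594 to 7975 in CTL and of 2649 to 5389 in the SKO-labelled group, and did not pass.

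Prss56, a secreted protease known for its part in eye growth (chromosome 1, 87183102 to 87188405), also fell and was the called protease nearest to the threshold. It had 1549, 1585, 1150 and 1043 in CTL 1 to 4 against 1124, 681, 764 and 611 in SKO 1 to 4. SKO 1 lay above CTL 4 (log2 fold change -0.76, limma adjusted p = 0.0446). The call was kept in only 2 of the 8 fits that left out 1 library. Of the proteases that did not pass, Prss8, which encodes the membrane-anchored protease prostasin, had the lowest adjusted p (limma adjusted p = 0.0822). It had 29, 37, 29 and 29 in CTL 1 to 4 against 101, 48, 68 and 53 in SKO 1 to 4, without overlap. Its level was low, with as few as 14 reads in a library. Without overlap, 5 proteases lay above and 4 below CTL, where 15.6% of all genes lay above and 10.6% below.

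**Figure D2:**
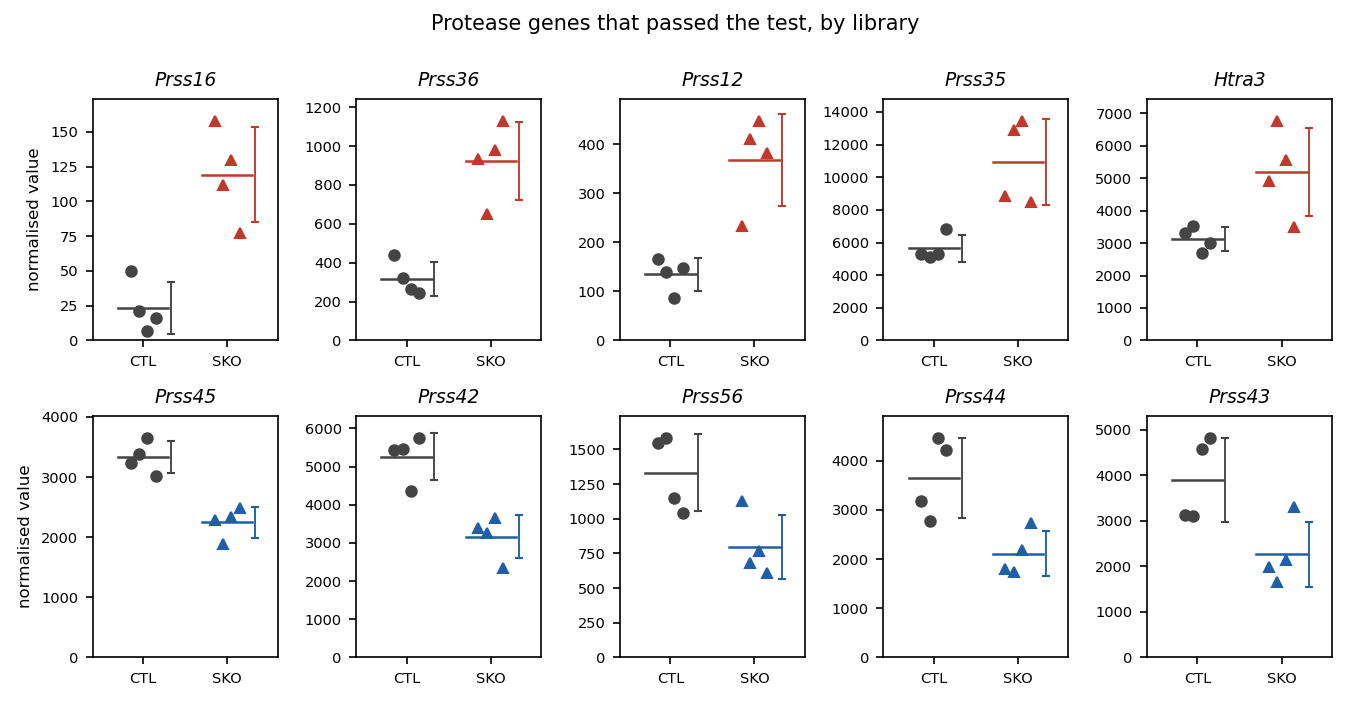
Normalised values of the 10 protease genes that passed, 1 panel each with its own axis from 0. Points are the 4 libraries of a group (circles CTL, triangles SKO-labelled), the long line is the mean and the bar beside it the SD. The SKO-labelled points lie above all CTL points for Prss16, Prss36, Prss12 and Prss35 and below all of them for Prss45, Prss42 and Prss44, whereas the groups overlap for Htra3, Prss56 and Prss43.

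The most abundant sperm proteases did not pass, and they varied strongly among libraries of the same group. Prss39, or TESP1, an acrosomal protease, had the highest level per kilobase of exon among the proteases with a known length, at 9380 in CTL and 7340 in the SKO-labelled group. Its values were 17919, 21464, 6514 and 4120 in CTL 1 to 4 against 16182, 9417, 8117 and 5441 in SKO 1 to 4 (log2 fold change -0.15, limma adjusted p = 0.866). CTL 1 and 2 were high and CTL 3 and 4 low. Prss59, with the highest values not divided by length, had 29131, 33105, 13761 and 14891 in CTL 1 to 4 against 24028, 13032, 13209 and 14670 in SKO 1 to 4. Again CTL 1, CTL 2 and SKO 1 stood above the rest (adjusted p = 0.370).

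Prss37, Prss55 and Tmprss12 encode proteins that mice need for sperm to enter the oviduct. Prss37 had 8096, 9303, 6497 and 3326 in CTL 1 to 4 against 6655, 2587, 2737 and 5823 in SKO 1 to 4, and did not pass (log2 fold change -0.64, limma adjusted p = 0.268). Prss55 had 5512, 5850, 2262 and 971 in CTL 1 to 4 against 5306, 1507, 2045 and 1775 in SKO 1 to 4 (limma adjusted p = 0.732). SKO 1 lay with CTL 1 and 2 and apart from the other SKO-labelled libraries. Tmprss12 had a narrower range, 1506 to 2293 in CTL and 1360 to 1877 in the SKO-labelled group (log2 fold change -0.24, 95% interval -0.66 to 0.18). Prss54, which encodes a protein of the acrosome, ranged from 1628 to 10822 in CTL and from 2549 to 6741 in the libraries labelled SKO (adjusted p = 0.944). Prss21 encodes testisin, a sperm surface protease that is anchored by a lipid. It had 6815, 6421, 6682 and 5137 in CTL 1 to 4 against 5198, 3390, 3399 and 6611 in SKO 1 to 4 (log2 fold change -0.48, limma adjusted p = 0.156). SKO 1 and SKO 4 lay within the CTL range, and the gene passed as lower without SKO 4.

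Spermatid markers varied in the same libraries. The 14 round spermatid markers summed to 184951, 215954, 102943 and 98781 in CTL 1 to 4 against to 169590, 116014, 109233 and 101831 in SKO 1 to 4, with 0 of 14 passing (median log2 fold change -0.18). The 14 elongating spermatid markers summed to 920592, 1113793, 572417 and 280137 and to 856786, 368374, 353327 and 338948. CTL 1, CTL 2 and SKO 1 again held the highest sums. Within CTL, libraries 3 and 4 were at least 2-fold below libraries 1 and 2 for 15 of 42 proteases (35.7%), 9 of 34 inhibitors (26.5%) and 11.5% of all genes. CTL 1 and 2 are the deepest libraries as well as those of low 18S content within CTL, so depth and 18S content cannot be told apart there. Within the low 18S libraries 6 proteases rose and 11 fell, among the latter Prss21, Prss37 and Prss59, where 18.8% of all genes rose and 13.4% fell. Without CTL 1 and 2 the log2 fold changes of Prss21, Prss37 and Prss59 were -0.44, -0.24 and 0.08. Within the high 18S libraries they were 0.18, 0.33 and 0.04. Within the 3 libraries of high 18S content, which hold 1 SKO-labelled library, 1 protease (Prss36) rose and 0 fell, against 0.205% and 1.35% of all genes. The part of spermatid content in these values was not tested.

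**Figure D3:**
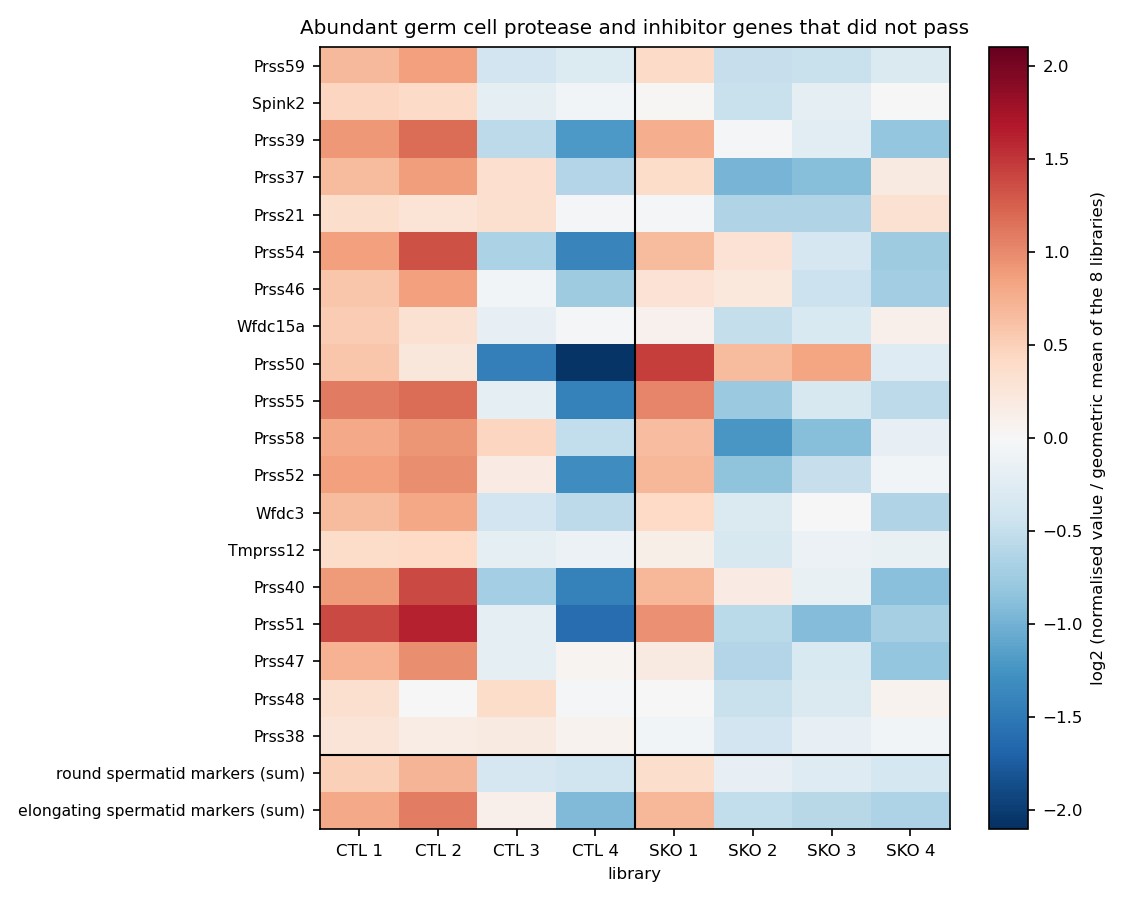
Log2 ratio of each library's normalised value to the geometric mean of the 8 libraries, for the 15 Prss genes with a mean of at least 500 that did not pass, for Tmprss12, Spink2, Wfdc15a and Wfdc3, and for the summed markers of round and elongating spermatids. Tmprss12, Spink2, Wfdc15a and Wfdc3 were picked by name. Further genes of that level that did not pass, such as Serpina5 and Spint2, are not shown. Columns are libraries, and the scale runs from -2.1 (blue) to 2.1 (red). CTL 1, CTL 2 and SKO 1 are red in most of the rows shown, as they are for the marker sums, and the lowest value, -2.07, is that of Prss50 in CTL 4.

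No Klk or Tmprss gene passed in limma, 0 of 7 and 0 of 5, and 0 had an unadjusted p below 0.05. Tissue kallikreins of the Klk1b row on chromosome 7 are trypsin-like enzymes, some of which Leydig cells of the mouse testis make. Klk1b27 (listed in older nomenclature as Klk27) had 263, 711, 246 and 119 in CTL 1 to 4 against 115, 347, 36 and 19 in SKO 1 to 4, with CTL 2 and SKO 2 the highest of their groups (log2 fold change -1.79, SE 0.82, limma adjusted p = 0.142). The estimate was -2.5 without SKO 2, -1.22 without SKO 4 and -1.19 without CTL 1 and 2, and did not pass in these fits. With 18S content as a covariate the gene passed as lower (-2.23, limma adjusted p = 0.0365). Klk1b27 had as few as 8 reads in a library. Klk1b24 had 342, 721, 66 and 147 in CTL 1 to 4 against 483, 702, 144 and 116 in SKO 1 to 4 (log2 fold change 0.30, adjusted p = 0.816), and its estimate was -0.31 without CTL 3. Klk1b21 ranged from 308 to 889 in CTL and from 102 to 546 in the libraries labelled SKO (adjusted p = 0.311). Of the 12 Leydig cell markers 2 rose and 0 fell, and their sum was 57078 to 71360 in CTL and 47412 to 88849 in the SKO-labelled group. The 6 Klk1b genes share between 22.5% and 53.4% of their transcripts as exact runs of 50 bases with other genes, so reads may have been split among them.

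Of the 19 serpin genes 7 rose (36.8%, against 11.9% of all genes) and 1 fell (5.26%, against 7.93%). The risen ones include inhibitors secreted by somatic cells and intracellular inhibitors. Serpine2 encodes protease nexin-1, which inhibits thrombin, urokinase and tissue plasminogen activator (chromosome 1, 79794317 to 79858665). It had 483, 489, 356 and 590 in CTL 1 to 4 against 842, 911, 855 and 893 in SKO 1 to 4. The SKO-labelled values lay close together and all exceeded CTL 4 (log2 fold change 0.88, SE 0.18, limma adjusted p = 0.0154). Serpinh1 encodes HSP47, a collagen chaperone of the endoplasmic reticulum that has the serpin fold but inhibits no protease (chromosome 7, 99345375 to 99353239). Its CTL values were 4012, 3613, 3114 and 3543, and its SKO-labelled values were 5212, 7117, 6245 and 5303, without overlap (1.66-fold, limma adjusted p = 0.0153).

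Serping1 and Serpinf1 also encode secreted proteins. Serping1 is the C1 inhibitor, which blocks the first complement proteases and plasma kallikrein (chromosome 2, 84765360 to 84775444). CTL 1 to 4 had 3746, 4095, 2330 and 2525, and SKO 1 to 4 had 5037, 6752, 5735 and 4067. SKO 4 was just below CTL 2 (1.72-fold, log2 fold change 0.78, limma adjusted p = 0.0397). Serpinf1 encodes PEDF, an inhibitor of vessel growth without protease-inhibiting activity, and was the called inhibitor nearest to the threshold (chromosome 11, 75410029 to 75422623). It had 1212, 1252, 472 and 720 in CTL 1 to 4 against 1640, 2362, 1962 and 1294 in SKO 1 to 4 (log2 fold change 1.06, limma adjusted p = 0.0463). The highest CTL value, in CTL 2, was close to the lowest SKO-labelled one, in SKO 4. Serping1 and Serpinf1 each kept the call in 3 of the 8 fits that left out 1 library.

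Serpina5, the protein C inhibitor without which male mice are infertile, had the highest level per kilobase of exon of the serpins, 3900 in CTL and 7330 in the SKO-labelled group, but did not pass. Its values were 8700, 10565, 6266 and 8199 in CTL 1 to 4 against 17172, 20664, 17341 and 8239 in SKO 1 to 4 (1.81-fold, log2 fold change 0.86, SE 0.28, limma adjusted p = 0.0589). SKO 1 to 3 lay above every CTL library and SKO 4 among them. The gene passed as higher without SKO 4, within the low 18S libraries (limma adjusted p = 0.0165) and without CTL 1 and 2 (limma adjusted p = 0.0480).

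The remaining called serpins act inside cells. Serpina3g, known as Spi2A and an inhibitor of cysteine cathepsins (chromosome 12, 104236147 to 104241939), had 100, 300, 209 and 253 in CTL 1 to 4 against 404, 557, 476 and 543 in SKO 1 to 4 (2.42-fold, limma adjusted p = 0.0261). Serpinb6b (chromosome 13, 32956811 to 32979067) had 105, 240, 238 and 147 in CTL 1 to 4 against 346, 432, 459 and 450 in SKO 1 to 4 (2.39-fold, limma adjusted p = 0.0202). Its neighbour Serpinb1a, which inhibits neutrophil elastase (chromosome 13, 32842092 to 32853206), had 548, 663, 441 and 683 in CTL 1 to 4 against 992, 1264, 994 and 711 in SKO 1 to 4 (1.68-fold, limma adjusted p = 0.0402). In all 3 genes the groups did not overlap, by a narrow gap between CTL 4 and SKO 4 in Serpinb1a. Serpinb1a kept its call in only 2 of the 8 fits that left out 1 library.

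Serpinb6a was the exception among the inhibitors (chromosome 13, 33917918 to 34002794). It encodes an intracellular inhibitor of trypsin-like proteases and of cathepsin G. CTL 1 to 4 had 12601, 13597, 13392 and 12976, a spread of 1.08-fold, and SKO 1 to 4 had 8922, 10840, 10387 and 8747. All SKO-labelled libraries lay below all CTL libraries (1.36-fold lower, log2 fold change -0.44, SE 0.12, limma adjusted p = 0.0351). Serpinb6a kept its call in only 2 of the 8 fits that left out 1 library. Of its exon bases 29.3% overlap opposite-strand genes, Nqo2, Ripk1 and 1110046J04Rik. Exact runs of 50 bases shared with other genes, the related Serpinb6c among them, cover 23.6% of the transcript of Serpinb6a and 6.2% of that of Serpinb6b.

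The WAP-domain genes had the largest inhibitor changes. Of the 9 Wfdc genes 4 rose (44.4%, against 11.9% of all genes) and 0 fell, with a median log2 fold change of 1.11. Of these genes 3 risen ones, Wfdc10, Wfdc9 and Wfdc8, stand in a row of 9 Wfdc and Spint genes on chromosome 2, in which the other 6 did not pass. Wfdc10 (164656046 to 164657368), with the promoter shown above, had 1636, 1448, 666 and 649 in CTL 1 to 4 against 4097, 2618, 4654 and 2868 in SKO 1 to 4. The lowest SKO-labelled value was well above the highest CTL value (3.43-fold, log2 fold change 1.78, SE 0.34, limma adjusted p = 0.0141). Wfdc9 (164649625 to 164657343) had 139, 98, 69 and 63 in CTL 1 to 4 against 319, 246, 383 and 263 in SKO 1 to 4, the same order of libraries within CTL (3.26-fold, limma adjusted p = 0.0125). The spans of Wfdc10 and Wfdc9 overlap on opposite strands, although their annotated exons do not. The level per kilobase of exon was 2400 for Wfdc10 and 169 for Wfdc9 in CTL.

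Wfdc8 (164596458 to 164613626) had 133, 74, 66 and 108 in CTL 1 to 4 against 247, 161, 190 and 229 in SKO 1 to 4 (2.16-fold, limma adjusted p = 0.0301). Wfdc6a, in the same row, had 819, 981, 451 and 375 in CTL 1 to 4 against 1525, 1365, 1291 and 667 in SKO 1 to 4 and did not pass (log2 fold change 0.92, limma adjusted p = 0.0935). It passed as higher within the low 18S libraries (0.63, adjusted p = 0.0290) and without CTL 1 and 2 (1.43, adjusted p = 0.0130). Over 55.9% of its transcript it shares exact 50-base runs with its neighbour Wfdc6b. Spint3, a Kunitz gene of the row and the inhibitor just outside the threshold, had 60, 46, 63 and 13 in CTL 1 to 4 against 169, 97, 124 and 100 in SKO 1 to 4, without overlap (limma adjusted p = 0.0521). Wfdc15a, at the end of the row, did not pass, with means of 4290 ± 963 in CTL and 3438 ± 709 in the SKO-labelled group (SD, n = 4; adjusted p in limma 0.293). Wfdc1, also called ps20, is a secreted protein of connective tissue cells on chromosome 8 (119666365 to 119688020). It had 3470, 3191, 1850 and 1674 in CTL 1 to 4 against 6209, 5306, 5658 and 3690 in SKO 1 to 4, and rose without overlap (2.11-fold, limma adjusted p = 0.0252).

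**Figure D4:**
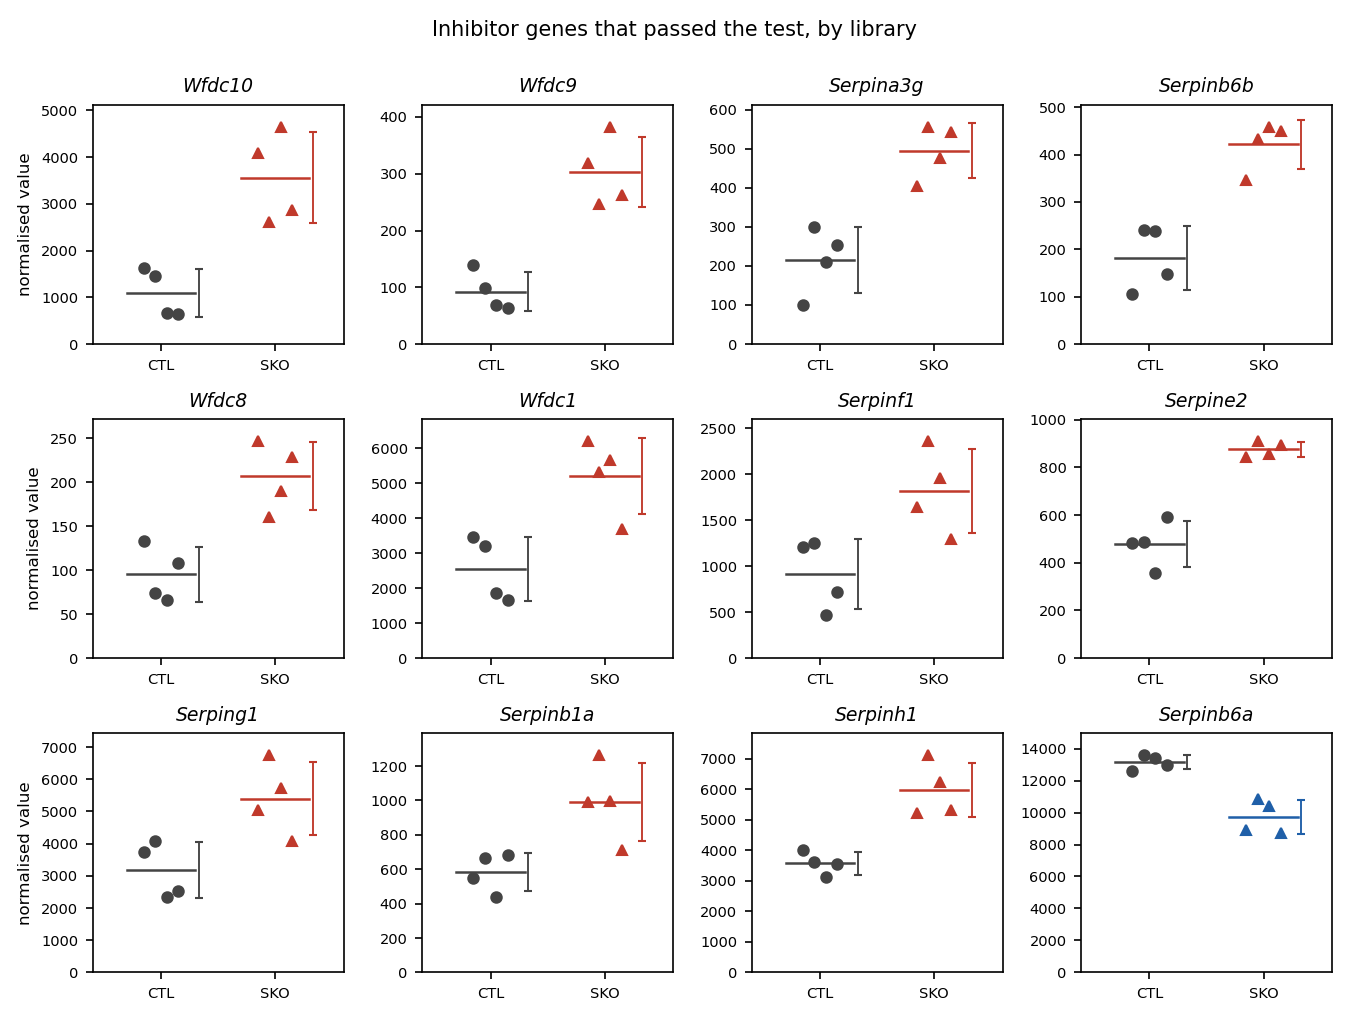
Normalised values of the 12 inhibitor genes that passed, 1 panel each with its own axis from 0. Points are the 4 libraries of a group (circles CTL, triangles SKO-labelled), the long line is the mean and the bar beside it the SD. SKO-labelled points lie above all CTL points in 10 of the 11 risen genes, Serping1 being the exception by 1 library, and below all of them for Serpinb6a.

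No Spink or Spint gene passed in limma, 0 of 2 and 0 of 4, and 1 of them, Spint3, had an unadjusted p below 0.05. Spink2, the acrosin inhibitor without which spermatids fail, had the highest level per kilobase of exon of all inhibitors, 23600 in CTL and 18800 in the SKO-labelled group. Its values were 22450, 21707, 14374 and 15839 in CTL 1 to 4 against 16629, 11919, 14436 and 16400 in SKO 1 to 4 (log2 fold change -0.31, 95% interval -0.73 to 0.11, limma adjusted p = 0.256). Within the low 18S libraries it passed as lower (log2 fold change -0.64, limma adjusted p = 0.0265). The log2 fold change of Spink2 was -0.09 without CTL 1 and 2 and 0.13 within the high 18S libraries. Spint1 and Spint2, membrane-bound inhibitors of matriptase and hepsin, had ranges of 844 to 1265 and of 5931 to 11688 in CTL. In the SKO-labelled group they ranged from 1187 to 1280 and from 10522 to 15403 (log2 fold changes 0.28 and 0.46; limma adjusted p = 0.217 and 0.163).

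Several lists of cell type markers moved beside these genes. Of 30 Sertoli cell markers 20 rose and 0 fell, and their sum was 185729 to 295430 in CTL and 328353 to 535267 in the SKO-labelled group. Of 12 markers of peritubular myoid and smooth muscle cells 6 rose (sums 66692 to 81233 and 82373 to 145155), and of 15 macrophage and immune markers 5 rose (13253 to 18075 and 18124 to 26522). In both lists 0 fell. The immune markers that rose were H2-Eb1, H2-Aa, Cd74, H2-Ab1 and C1qc. Adgre1, Mrc1, Cd14 and Ptprc had log2 fold changes of 0.09, 0.13, -0.01 and -0.02 and did not pass. Of 10 endothelial markers 2 rose and 0 fell (sums 6151 to 9678 and 6170 to 10685). Of 6 red blood cell markers 0 rose and 1 fell, and 0 of 2 mast cell markers passed. Of 11 spermatogonia markers 4 rose and 0 fell, with a median log2 fold change of 0.57 (sums 47966 to 93994 and 55316 to 81287). Most of these sums was Dmrtb1, with means of 54590 in CTL and 41870 in the SKO-labelled group (log2 fold change -0.29), which did not pass. Of 12 markers of pachytene and later spermatocytes 8 fell and 0 rose, with sums of 722346 to 879241 in CTL and 520145 to 591846 in the SKO-labelled group. None of these markers was at 0 in any library. Epididymis, where many Wfdc genes are expressed, had 4 of 17 listed markers in the table, 0 of which passed (sums 1864 to 3750 and 2379 to 5194). Their median log2 fold change was -0.37. Only Eppin, itself an inhibitor, had a positive log2 fold change, 1.13. Those of Rnase10, Teddm2 and Ros1 were -0.59, -0.14 and -1.1. The part of cell content in the changes of Wfdc, Serpin and Prss genes was not tested.

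Other genes of the same pathways are given by their counts, to be read against the 11.9% of all genes that rose and the 7.93% that fell. Other trypsin-fold proteases numbered 17, of which 3 rose and 0 fell. Masp1, a starter protease of the lectin complement pathway, rose 2.26-fold, with means of 311 ± 70.4 in CTL and 709 ± 155 in the SKO-labelled group. C1ra, a protease of the C1 complex, rose 1.91-fold, with 889 ± 164 and 1727 ± 453 (limma adjusted p = 0.0146 and 0.0227; SD, n = 4). Plat, tissue plasminogen activator, a target of Serpine2 that Sertoli cells secrete, had 1776, 1541, 1387 and 1656 in CTL 1 to 4 against 3021, 2511, 2981 and 2754 in SKO 1 to 4 (limma adjusted p = 0.0123). The acrosin gene Acr, target of Spink2, did not pass, at 16460 ± 4456 in CTL and 12420 ± 2281 in the SKO-labelled group (adjusted p in limma 0.215; SD, n = 4). Of 9 proprotein convertases Furin rose 1.61-fold (limma adjusted p = 0.0268) and 0 fell, and the germ cell convertase Pcsk4 had a log2 fold change of -0.63 that did not pass (adjusted p = 0.0568).

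Of 21 other inhibitors tested 2 rose and 1 fell. App, whose longer forms carry a Kunitz domain, rose 1.58-fold and Reck, a membrane-bound metalloprotease inhibitor with Kazal-type repeats, 1.41-fold, while the Kunitz-domain matrix gene Papln was 1.66-fold lower (limma adjusted p = 0.0161, 0.0377 and 0.0206). Of 21 receptors and targets of serine proteases 1 rose and 2 fell. F3, tissue factor, rose 2.43-fold with overlapping groups (limma adjusted p = 0.0445). Adam2, a sperm surface protein cut during maturation, was 1.75-fold lower, at 52760, 57280, 51709 and 67460 in CTL 1 to 4 against 32824, 34794, 32399 and 30323 in SKO 1 to 4. Clgn, the chaperone that assembles such ADAM proteins, was 1.52-fold lower (limma adjusted p = 0.0123 and 0.0295).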

How the data were processed

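The 4 CTL and 4 N6amt1-SKO libraries of mouse testis RNA were grouped by their titles. Per the submitters' processing notes, HISAT2 2.0.5 and featureCounts 1.5.0-p3 were used with build mm10, besides CASAVA and fastp. The values are a score: the authors deposited whole numbers made from read counts by scaling each library and rounding, as the gaps between values show in 6 libraries. The signal was weaker in CTL 1 and 2. The scaling method and counting options are not given in the sources used here, and the NEBNext Ultra RNA kit, per the labels' protocols, does not mark strand. Genes of low value had been left out (lowest row maximum 95).

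Because the values are not raw counts, limma 3.58.1 (R 4.3.3) was used. Tested were genes reaching 25 in 4 or more libraries (17066, all 76 genes described here among them). Values were divided by TMM factors (trims 30% and 5%), taken as log2(value + 5), which understates changes of low genes, and fitted with a variance trend and no covariate. The fit was tested on simulated data in which all genes had the same scatter and libraries of a group differed only in depth. Such data cannot check the fit under the other differences between libraries described above. Replicates differed by more than sampling noise. Prss59 had no entry in the gene tables used. Coordinates are RefSeq loci and lengths and exon overlaps are from GENCODE M21, both on GRCm38.

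The genes, the pathway and marker lists and the rule for named genes were chosen with earlier results of these data known. Named are all called genes, the 6 with the highest means in each class, 27 genes with a known role in testis or sperm (1 of which is not reported here), and the gene on either side of the threshold. Of the pathway lists, genes are named by size of change. Plat, Acr, Pcsk4, Prss46 and Wfdc3 were added after their values were seen. Alternatives covered scaling, added constant, filter, test, left-out libraries, 18S content and a replicate block.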

Additional observations from a re-analysis of the deposited data

Results flagged for a closer look

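A value far from the other 3 of its group was found in 5 of the 86 groups of 4 examined, which are 43 named genes in CTL and SKO-labelled libraries. Chance alone gives such a value in about 1 in 20 groups. In CTL, Klk1b21 had 889 in CTL 2, where the other 3 libraries had 308 to 321. Prss8 had 37 in CTL 2 and 29 in each of the others. Prss35 had 6857 in CTL 4 against 5135 to 5287. In the libraries labelled SKO, Prss55 had 5306 in SKO 1 against 1507 to 2045, and Prss59 had 24028 in SKO 1 against 13032 to 14670. Of these genes Prss35 passed the test, and its CTL 4 value lay on the side of the SKO-labelled group.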

How the results depend on the processing

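No called gene changed sign in any of the 23 alternatives. Counts are given as proteases risen and fallen, then inhibitors risen and fallen (5 and 5, 11 and 1 in the fit described). Leaving out 1 library gave 0 to 5, 0 to 5, 0 to 15 and 0 to 1. Of the 22 called genes, 7 passed in 7 of these 8 fits: Prss12, Prss36, Prss42, Serpine2, Serpinh1, Wfdc9 and Wfdc10. Prss43, Serpinf1, Serping1 and Wfdc8 passed in 3 of them, Prss56, Serpinb1a and Serpinb6a in 2, and Htra3 in 1. Upper quartile scaling gave 3 fallen proteases, where 6.79% of all genes fell. Library totals gave 20 risen inhibitors and 0 fallen proteases or inhibitors, where 28.6% of all genes rose and 2.67% fell. Library weights gave 24 fallen proteases and 21 and 4 inhibitors, where 31.2% of all genes rose and 27.5% fell. A fit with no variance trend gave 3 fallen proteases and 0 fallen inhibitors, where 6.52% of all genes fell. A test against a fold of 1.5 gave 0 in each, where 0 of all 17066 genes passed. At an unadjusted p below 0.05 it gave 10 of the 76 genes and 688 of all genes. The low 18S libraries gave 11 fallen proteases and 4 fallen inhibitors, where 13.4% of all genes fell. They kept 5 of 5 fallen and 5 of 5 risen proteases and 10 of 11 risen inhibitors. The high 18S libraries, 2 against 1, gave 1 and 0 proteases (Prss36) and 1 and 0 inhibitors (Wfdc10). The causes of these moves were not tested. Over the named genes, 798 of 987 values stayed on their side of the threshold, 137 lost the call and 52 gained it.

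Replicate numbers were not shown to pair the libraries: correlations of same-numbered deviations were 0.673, 0.012, 0.082 and 0.231, and 1 of 4 numbers correlated best with itself. The replicate block gave 6 and 6 proteases and 16 and 1 inhibitors, where 12.7% of all genes rose and 9.97% fell. Precision is limited for Prss16, with 4 to 124 reads a library.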
